A study of Caenorhabditis elegans with 2 samples.

Results

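The peaks described here are those of a tagged CEH-14 protein that lay at the promoter of a single gene on an autosome of the nematode Caenorhabditis elegans. They were taken from the 1681 peaks that passed the authors' filter on the irreproducible discovery rate (IDR, which measures how consistently replicates rank their peaks). The summit is the base of a peak that the authors' caller marked as its highest. A peak was kept when its summit lay on an autosome, when annotated transcript starts of exactly 1 protein-coding gene lay within 1000 bases, and when no tRNA, snoRNA or snRNA gene lay within 200 bases. The rule kept 476 peaks, which were 28.3% of all IDR peaks and 35.3% of the 1347 autosomal ones. They lay at 434 genes and formed 442 separate regions once overlapping peaks were joined. Of the other IDR peaks, 343 autosomal summits had starts of at least 2 genes within the window, 389 had none, 139 lay near a small RNA gene, 324 lay on chromosome X and 10 in the mitochondrial genome. Of the 139 peaks near a small RNA gene, 49 would otherwise have met the rule.

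The material was chromatin of whole hermaphrodite late embryos of strain OP315, collected 5 hours after synchronization by egg bleaching. The strain stably expresses a transgene in which CEH-14 carries GFP and FLAG at its C-terminus, and the fusion protein was recovered with an antibody against GFP after shearing by sonication. The series has 1 group with 2 biological replicates, and no untagged or input library was analysed here. Peaks from whole embryos do not show in which cells the protein was bound.

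CEH-14 is a LIM homeodomain transcription factor, known in C. elegans for specifying the fates of a small set of neurons. Homeodomain proteins in general bind short AT-rich sites with a TAAT core. A promoter is the stretch next to the start of a gene where transcription factors and RNA polymerase assemble, and in C. elegans it usually lies in the intergenic sequence upstream of the gene. Many transcripts of C. elegans are trans-spliced, meaning that their first bases are replaced by a short leader RNA, so that an annotated start can lie downstream of the place where transcription begins.

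The sequences around the summits are shown first, because the results on base composition and repeated words below turn on them. Each runs from 50 bases before a summit to 50 bases after it, read on the strand of its gene in the ce11 assembly (WBcel235, RefSeq copy). None overlaps an annotated exon. Within each set they are the strongest such members of genes not yet shown that carry the marked letters, among those on II, III, IV and V. The 4 windows below share the commonest 12-base word of the member windows, in capitals, which only 15 windows (3.15%) held.
M01F1.9 (chrIII:3499984-3500084, minus strand): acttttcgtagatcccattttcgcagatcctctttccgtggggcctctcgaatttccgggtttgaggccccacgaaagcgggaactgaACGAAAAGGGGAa
eel-1 (chrIV:3050823-3050923, minus strand): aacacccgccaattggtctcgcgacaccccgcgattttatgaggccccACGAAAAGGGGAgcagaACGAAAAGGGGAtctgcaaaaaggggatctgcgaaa
rps-24 (chrIV:385233-385333, plus strand): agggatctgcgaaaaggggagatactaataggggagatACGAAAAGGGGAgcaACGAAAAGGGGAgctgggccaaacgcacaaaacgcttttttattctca
Y62F5A.12 (chrII:11534926-11535026, minus strand): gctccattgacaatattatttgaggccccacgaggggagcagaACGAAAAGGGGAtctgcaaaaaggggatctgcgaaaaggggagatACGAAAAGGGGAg
A further pair shares another 12-base word, in capitals, that reads in opposite directions in them.
npp-8 (chrIV:1595955-1596055, minus strand): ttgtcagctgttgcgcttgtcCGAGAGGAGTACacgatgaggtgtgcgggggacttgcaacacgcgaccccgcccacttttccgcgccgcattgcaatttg
pptr-2 (chrV:11029449-11029549, minus strand): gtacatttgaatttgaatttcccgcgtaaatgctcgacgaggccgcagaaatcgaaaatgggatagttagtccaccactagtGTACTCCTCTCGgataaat
The next 4 windows carry GAGAGA or its reverse complement TCTCTC, in capitals.
K12H4.5 (chrIII:8043906-8044006, plus strand): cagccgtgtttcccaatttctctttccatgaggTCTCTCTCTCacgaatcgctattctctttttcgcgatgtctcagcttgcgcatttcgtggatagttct
hsp-1 (chrIV:17278536-17278636, plus strand): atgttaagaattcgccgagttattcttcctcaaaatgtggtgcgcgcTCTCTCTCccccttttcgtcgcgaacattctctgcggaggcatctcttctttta
W02G9.3 (chrV:2672760-2672860, plus strand): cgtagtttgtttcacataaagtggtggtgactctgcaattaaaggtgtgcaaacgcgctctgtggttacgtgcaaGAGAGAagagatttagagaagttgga
lin-66 (chrIV:13887527-13887627, plus strand): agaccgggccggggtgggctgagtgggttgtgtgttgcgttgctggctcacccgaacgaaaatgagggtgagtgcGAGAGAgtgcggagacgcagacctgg
The last 3 carry CTGCGT or its reverse complement ACGCAG, in capitals.
F53C11.5 (chrV:13789556-13789656, plus strand): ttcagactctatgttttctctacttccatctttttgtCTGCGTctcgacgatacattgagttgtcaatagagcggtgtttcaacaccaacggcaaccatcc
daf-19 (chrII:10169487-10169587, minus strand): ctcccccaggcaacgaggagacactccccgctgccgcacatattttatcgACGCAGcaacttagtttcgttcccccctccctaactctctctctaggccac
vps-60 (chrV:8606404-8606504, minus strand): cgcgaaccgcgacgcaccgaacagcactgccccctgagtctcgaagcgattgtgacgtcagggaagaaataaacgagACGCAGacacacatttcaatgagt

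The member summits lay mostly upstream of their genes. Of the 476 summits, 404 (84.9%, 95% Wilson interval 81.4 to 87.8%) were upstream of the nearest annotated start and 72 (15.1%) downstream. The sequence in which a summit could have met the rule was 30022513 bases long, and 46.0% of it was upstream. The density of summits was therefore 2.93 per 100 kb of upstream sequence and 0.444 per 100 kb of downstream sequence, against 1.59 per 100 kb of both together. The median signed distance was -232.5 bases (quartiles -432.2 and -98.2), where a negative sign means upstream. The stretch from 300 bases upstream to the start held 45.8% of the summits, and the stretch from 500 bases upstream held 64.3%.

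The density changed with distance. It was highest from 200 to 100 bases upstream, where 91 summits gave 5.72 per 100 kb (4.66 to 7.03), and next highest from 300 to 200 bases upstream, at 5.08 per 100 kb. In the last 100 bases before the start it was 2.93 per 100 kb, and in the first 100 bases after it 0.862 per 100 kb. Past that point every bin of 100 bases held between 2 and 10 summits, at 0.124 to 0.613 per 100 kb. Between 1000 and 600 bases upstream the density stayed between 1.07 and 1.96 per 100 kb.

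**Figure D1:**
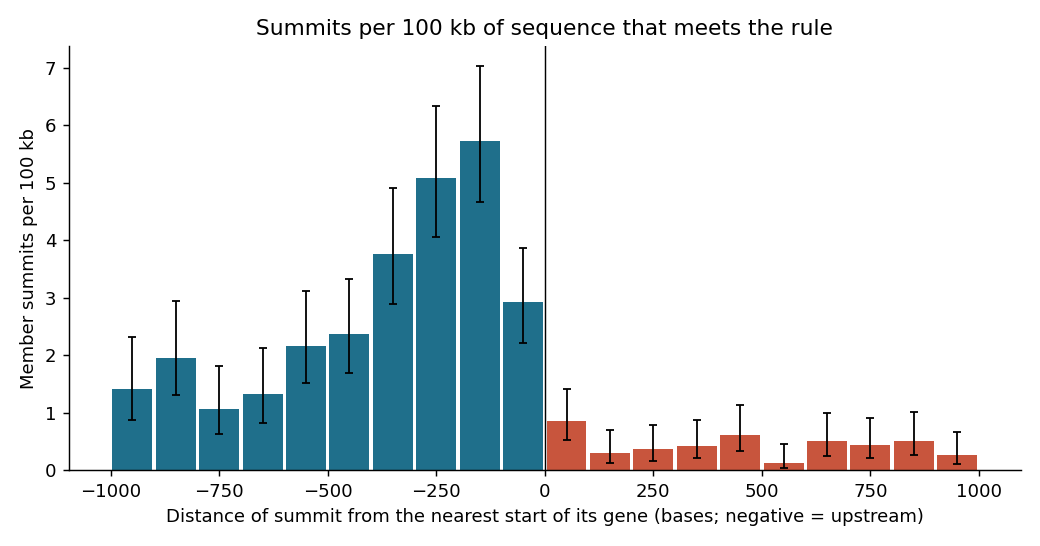
Member summits per 100 kb of sequence that meets the rule, in bins of 100 bases by signed distance from the nearest start of the gene; bars show the density, blue upstream and red downstream, and whiskers the 95% Wilson interval, which covers counting error only. The bar from 200 to 100 bases upstream is highest, at 5.72 per 100 kb, and no downstream bar passes 0.862.

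Among entries matched to a member by overlap, each replicate placed the summits alike. The matching itself favours this, because the IDR peaks derive from the same libraries. The entry of replicate 1 that matched a member had its own summit upstream in 84.8% of 441 cases, at a median of -232 bases, and the entry of replicate 2 in 85.7% of 441, at a median of -240 bases. The summit of the matching entry lay a median of 13 bases from the IDR summit in replicate 1 and 12 bases in replicate 2.

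The position also differed by gene structure. At genes with a single annotated start, 93.4% of 211 member summits were upstream. At genes with at least 2 starts the share was 78.1% of 265. Over all starts of each gene, 344 summits (72.3%) were upstream of every start, 98 (20.6%) lay between starts and 34 (7.14%) were downstream of every start. Genes with several starts were common among the members: 53.5% of the 434 genes had at least 2, against 27.6% of the 17242 autosomal protein-coding genes. Their median length was 3722 bases against 1964 bases. A gene with more starts offers more sequence in which a summit can meet the rule, although the median of that sequence per gene was 2000 bases in both sets.

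By annotation, 303 member summits (63.7%) lay between genes, 97 (20.4%) in introns, 26 (5.46%) in untranslated regions, 6 (1.26%) in coding exons and 44 (9.24%) in exons of non-coding genes. Among the 72 downstream summits, 31 were in introns, 20 in untranslated regions, 10 in exons of non-coding genes, 6 between genes and 5 in coding exons.

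Many C. elegans genes sit in operons, where several genes on the same strand are transcribed together from the promoter of the first. The neighbouring protein-coding gene upstream was on the same strand for 55.3% of the 434 genes. For the 11439 genes with a single-gene promoter, no IDR peak and an upstream neighbour the share was 68.8%. With a gap under 500 bases as a further condition, which fits genes inside an operon, the shares were 18.0% and 21.4%.

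The farthest members upstream were at unc-57 and Y24D9A.7, both -988 bases, and at pqn-87, at -987 bases. The gene unc-57 encodes endophilin, a protein of synaptic vesicle recycling. The farthest downstream were at tax-6, the calcineurin catalytic subunit (974 bases), at mbk-2, a protein kinase of the early embryo (973 bases), and at K11D2.4 (959 bases). Just outside the window, the nearest summits kept out were at M03C11.1 (-1013 bases, signal value 112.9) and dapk-1 (-1016 bases, signal value 83.5). At the limit for small RNA genes, the member at K05F1.6 lay 203 bases from a tRNA gene, and the peak at fbxl-1 was dropped at 178 bases from a snoRNA gene.

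The authors' signal value, which ranks entries within a list and has a scale of its own in each, ran from 73.0 to 1479.9 among the members with a median of 103.6. The middle of the distribution was narrow, with quartiles of 85.7 and 134.4. Upstream members had a median of 105.5 and downstream members 98.3. The medians of autosomal peaks with starts of several genes and with no start were 112.3 and 94.3. Of the 100 strongest IDR peaks, 28 were members, and 26 of those were upstream.

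The strongest member lay 531 bases upstream of K12H4.5, whose product is uncharacterized. Its signal value was 1479.9 in the IDR list, 720.3 in replicate 1 and 761.5 in replicate 2, and it ranked highest in all 3 lists. The next, 977 bases upstream of M01F1.9, which encodes a protein with an arrestin-like domain, had 842.5 in the IDR list, 375.3 in replicate 1 and 463.7 in replicate 2. Its summit lay in an intron of another gene.

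The gene eel-1, whose product is a ubiquitin ligase of the HECT class, had a pair of strong members. The one at -562 bases had a signal value of 563.6 in the IDR list, 267.4 in replicate 1 and 292.4 in replicate 2. The one at -769 bases had 405.7 in the IDR list, 195.2 in replicate 1 and 231.6 in replicate 2. Both summits were intergenic, 207 bases apart.

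Ribosomal protein genes followed. The peak 274 bases upstream of rpl-3, a protein of the large subunit, had 449.3 in the IDR list, 237.0 in replicate 1 and 214.5 in replicate 2. The gene rps-24, of the small subunit, had members at -604 and -383 bases with signal values of 362.5 and 312.0. These were 175.7 and 151.8 in replicate 1 and 186.1 and 160.3 in replicate 2. The 5 members at K12H4.5, M01F1.9, eel-1 and rpl-3 and the pair at rps-24 thus stood far above the upper quartile of all members in the IDR list, 134.4.

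The remaining members among the 12 strongest were at cdc-48.1, swsn-3, Y50D4C.5, bag-1 and ints-8. The gene cdc-48.1 encodes the p97 ATPase that extracts ubiquitinated proteins, and its peak at -176 bases had 352.0 in the IDR list, 170.1 in replicate 1 and 183.9 in replicate 2. The gene swsn-3 encodes a subunit of the SWI/SNF chromatin remodelling complex, and its peak at -161 bases had 331.9 in the IDR list, 158.2 in replicate 1 and 174.0 in replicate 2. The peak of bag-1, a regulator of Hsp70 chaperones, had 305.5 in the IDR list, 125.6 in replicate 1 and 177.1 in replicate 2. The peak at Y50D4C.5 (312.9) had a matching entry in replicate 2 alone, with 176.4, and its window had the low GC content of 19.8%. The peak at ints-8, a subunit of the Integrator complex, was the strongest downstream member, at 875 bases, with 287.4 in the IDR list and 150.3 in replicate 2. By any overlap both had entries in replicate 1 as well, at ranks 49 and 48.

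**Figure D2:**
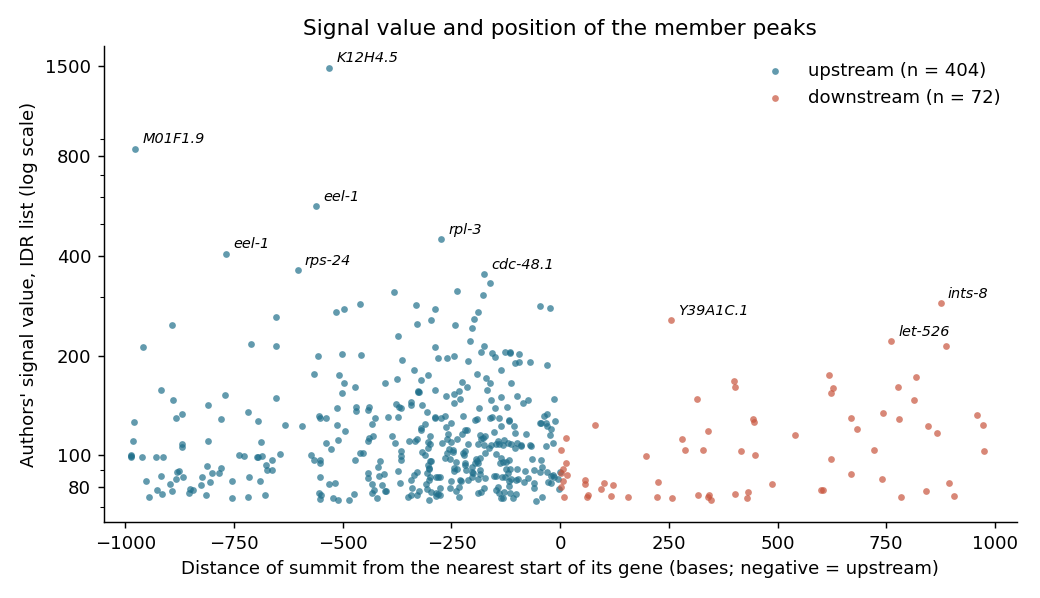
Authors' signal value in the IDR list (log axis) against signed distance from the nearest start for the 476 member peaks; each point is a peak, blue upstream and red downstream, and the 7 strongest members and the 3 strongest downstream ones carry the name of their gene. The strongest points are upstream, led by K12H4.5 at 1479.9, and the strongest downstream point is ints-8 at 287.4.

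The members were met in both replicates to the same extent. At an overlap of at least 50% of each entry, 441 members (92.6%) had an entry in replicate 1 and 441 (92.6%) in replicate 2, and 435 had one in both. By 1 base all 476 were met in each. The 29 members met in neither at 50% had a median width of 151 bases, against 456 bases for all members. Neighbouring members can match the same replicate entry. Median signal values were 49.2 in replicate 1 and 56.4 in replicate 2, on the scale of each list. Over the 435 members met in both, Spearman's rho between the replicates' signal values was 0.53, as a description of points that share libraries.

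Ranks differed widely for some weak members. The members at Y43F8B.1 and lgg-1, an autophagy protein of the Atg8 family, ranked 778 and 819 in replicate 1 and 4552 and 4340 in replicate 2. In the opposite direction, the weaker of a pair at Y39A1C.1 and members at pash-1 (a partner of Drosha in microRNA processing) and pnc-1 (a nicotinamidase) ranked 1078, 949 and 844 in replicate 2 and 10192, 8676 and 8332 in replicate 1. The member at mrck-1, a protein kinase, was stronger (249.2 in the IDR list) and ranked 220 in replicate 1 and 9099 in replicate 2 by the entry that matched at 50%, but 38 in replicate 2 by the strongest overlapping entry.

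**Figure D3:**
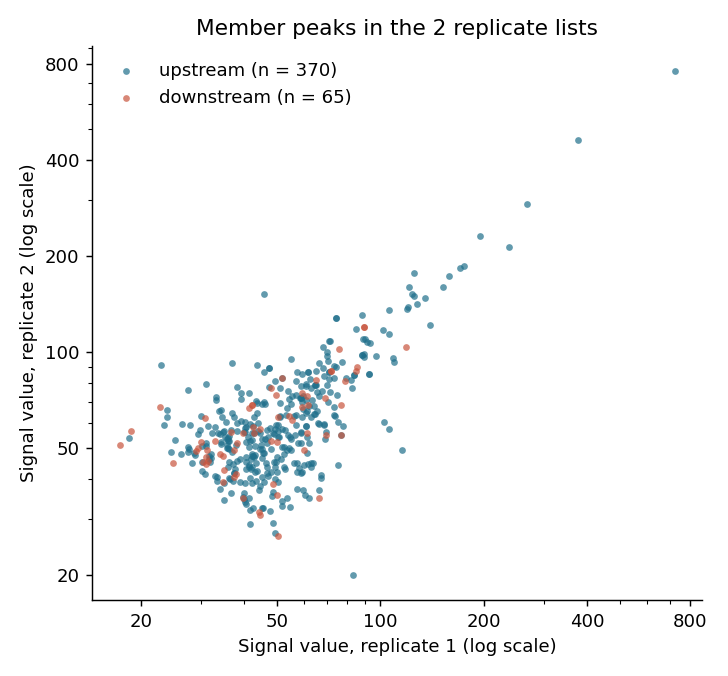
Authors' signal value in replicate 1 against replicate 2 (both axes logarithmic) for the 435 member peaks met in both lists at 50% reciprocal overlap; each point is a member, blue upstream and red downstream. The strongest members lie at the upper right in both lists, up to 720.3 and 761.5, and weak members scatter.

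Most genes had a single member peak: 394 had 1, 38 had 2 and 2 had 3. In 33 of the 38 genes with a pair, the summits lay less than 300 bases apart, so that the peaks mostly adjoined or overlapped. The genes with 3 were T24B8.3, whose product resembles prothymosin alpha, and gsa-1, the stimulatory G protein alpha subunit. Summits of T24B8.3 were at -883, -375 and 432 bases, each from the nearest of 3 starts, with signal values of 84.7, 170.0 and 77.3. Those of gsa-1 were at -312, -262 and -61 bases, with signal values of 124.0, 121.5 and 79.5, and spanned 1849 bases. The largest span was at nurf-1, a chromatin remodelling factor with 16 annotated starts, where the summits lay 5575 bases apart.

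The 434 genes were 2.52% of the 17242 autosomal protein-coding genes, which is the background for the shares that follow; among the 16527 genes with sequence in which a summit could meet the rule, they were 2.63%. Any IDR summit within 1000 bases of a start was found for 6.85% of those genes. Of 38 lists of genes by function, 6 held a share of more than 4 times the background of 2.52%. The lists were drawn up with earlier results of these data known, so the shares are descriptions, and 296 of the 434 genes (68.2%) were in none. Genes within a list also differ from others in the number of starts and in the room that the rule leaves them, so summits per 100 kb of that room are given for the lists with the highest shares or densities. The single-gene rule also leaves out peaks at crowded promoters, so the share of genes with any IDR summit within 1000 bases of a start is given for these lists too.

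Heterotrimeric G protein signalling carries messages from receptors at the cell surface to enzymes and channels within, and in C. elegans it sets neurotransmitter release. It held the highest share, with 9 of 36 genes (25%, interval 13.8 to 41.1%) and 10.7 member peaks per 100 kb against 1.59 for all genes. Any IDR peak was found at 27.8% of the list. The members cover several steps of the cascade. Among the G protein subunits, egl-30 (Gq alpha) had a peak at 401 bases with a signal value of 167.2, and gpb-1 (G beta) had a pair at 618 and 417 bases with 175.1 and 103.2. The subunits gpa-7 and gpb-2 had peaks at -718 and -685 bases with signal values of 134.8 and 99.5. Of the regulators that switch G proteins off, eat-16 had a pair at -566 and -365 bases with 175.6 and 99.2, and rgs-1 a peak at -319 bases with 169.3. Downstream of Gs, acy-1 (adenylyl cyclase) had a peak at -122 bases with 139.9 and kin-1 (protein kinase A catalytic subunit) 1 at -282 bases with 85.8. In the replicates, rgs-1 had 70.0 and 100.2, acy-1 had 62.6 and 77.3, gpa-7 had 74.5 and 73.4 and kin-1 had 36.2 and 49.8, in replicate 1 and 2. Only egl-30 and gpb-1 had their strongest summit downstream of the nearest start.

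The neuronal and synaptic list held 12 of 55 genes (21.8%, 12.9 to 34.4%), with 7.55 member peaks per 100 kb, and any IDR peak was found at the same 21.8%. All 12 strongest summits were upstream. The strongest were at rgef-1, a Ras guanine nucleotide exchange factor of neurons (-307 bases, signal value 135.3), egl-21, a carboxypeptidase that processes neuropeptides (-30 bases, 122.8), unc-70, beta-spectrin (-443 bases, 110.7), and unc-57. In the replicates rgef-1 had 63.1 and 70.7. Others were rab-3 and snt-4, which act at synaptic vesicles, cla-1, a protein of the active zone, unc-36, a calcium channel subunit, and shk-1, a potassium channel, with signal values up to 91.6. These were weak peaks. The list's median signal value, by the strongest peak of each gene, was 90.3, below the 103.6 of all members, which counts every peak. The list of axon guidance and adhesion genes held 6 of 65 (9.23%), among them unc-76 (131.8), zig-1 (110.8), unc-14 (107.6) and sax-7 (107.5). Some lists of large gene families were near or under the background. Neuropeptide and insulin-like genes had 1 of 108 (0.926%). Chemoreceptors had 0 of 1262, which allows a share of up to 0.238% (3 counts of the total). Ion channels and transporters, a list not limited to neurons, had 5 of 321 (1.56%). Without replicate 2 the neuropeptide list held 2 genes and the chemoreceptors 1.

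Genes that act on chromatin formed the third list by share, with 14 of 92 (15.2%, 9.29 to 23.9%) and 9.89 member peaks per 100 kb, and any IDR peak was found at 33.7%. Within the list, swsn-3 was followed by pbrm-1 (141.8, -809 bases), a bromodomain subunit of a SWI/SNF complex, nurf-1 (131.2, -37 bases) and mys-1 (129.6, -289 bases), a histone acetyltransferase. Histone methyltransferases in the list were set-25, set-4 and set-2, of which set-25 had a signal value of 101.9 and set-2 of 90.8. Some stronger members with products of this kind were not in the list. By product name these were F39G3.3, a histone H3-K79 methyltransferase (283.6), let-526, with an ARID domain (221.4), and unc-85, a putative histone chaperone (201.4). The Wnt list, which governs cell polarity in the embryo, held 4 of 29 genes (13.8%, 5.50 to 30.6%), all with low values: lin-17, a Frizzled receptor (84.9, downstream at 740 bases), wrm-1, a beta-catenin (83.6), lit-1, a Nemo-like kinase (77.1), and fmi-1, a Flamingo cadherin (76.5). Its density was 4.91 member peaks per 100 kb, and any IDR peak was found at 17.2%. The list held 1 gene when the members were chosen from the 1681 strongest peaks of replicate 2 alone (without replicate 1), and 2 from those of replicate 1 alone. The vacuolar ATPase list held 2 of 18 (11.1%), vha-13 (108.8) and vha-9 (104.1), at 9.15 per 100 kb, with 16.7% for any IDR peak, and 1 gene without replicate 2.

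Several lists of general cell functions had shares between 6% and 11%, although the vesicle traffic list also holds rab-3 of the neuronal list. By any IDR peak their order was different: translation factors had one at 35.9% of genes, heat shock proteins and chaperones at 32.4%, cytosolic ribosomal proteins at 30.4% and mitochondrial respiration at 27.3%, so that these shares were close to or above that of the G protein list. Densities of member peaks per 100 kb were 8.98 for translation factors, 6.95 for chaperones and 11.5 for mitochondrial respiration, the last above the G protein list. The median signal values of these 3 lists, by strongest peak, were 161.0, 129.7 and 164.5, above the 103.6 of all members, which counts every peak. Translation factors had 4 of 39 (10.3%), all of them subunits of initiation factor eIF3: eif-3.C (196.6), eif-3.I (174.5), eif-3.B (147.6) and eif-3.J (82.2). Heat shock proteins and chaperones had 7 of 71 (9.86%), led by cdc-48.1, bag-1, the Hsc70 gene hsp-1 (228.8, at -373 bases) and dnj-9 (129.7). All 7 were upstream. Mitochondrial respiration had 4 of 44 (9.09%), all upstream: cox-5A (211.8) and cox-5B (187.0) of complex IV, cyc-1 (141.9) of complex III and the copper chaperone sco-1 (128.2). Cytosolic ribosomal proteins had 6 of 79 (7.59%), all upstream: beside rpl-3 and rps-24 these were rpl-35 (285.7), rpl-24.2 (122.8), rpl-14 (96.1) and rps-21 (75.3). These genes leave little room for the rule, a median of 461 bases each, and their density of 15 member peaks per 100 kb was the highest of the 38 lists. The median signal value of the 6, by strongest peak, was 204.2. Ubiquitin conjugation and removal had 7 of 81 (8.64%), mRNA splicing 6 of 82 (7.32%) and vesicle traffic and microtubule motors 11 of 166 (6.63%), of which 5 were vps genes of endosomal and lysosomal sorting. The median signal values of the ubiquitin and splicing lists, by strongest peak, were 102.2 and 94.6, below that of all member peaks. These lists left out some strong members. Grouped by product name instead, 8 of 51 splicing genes (15.7%) had a member peak, at 12.6 per 100 kb. This was the highest share of the groups by product name. Others were lower, such as protein kinases (5.15%), zinc finger proteins (3.80%), protein phosphatases (1.87%) and transmembrane receptors (0.409%). The 8 included Y39E4B.6 (282.0), plrg-1 (242.5) and tos-1 (279.3). The gene tos-1 was counted because its product is named a target of splicing. The ubiquitin group by product name had 10 of 150 (6.67%), among them duo-3 (260.7). RNA polymerase and general transcription (3 of 75 genes), aminoacyl-tRNA synthetases (3.23%) and proteasome subunits (3.03%) were closer to the background, and mitochondrial ribosomal proteins had 5.71% with a median signal value of 97.6. Without replicate 2 the mitochondrial ribosomal list held 2 genes in place of 4, and the synthetases and the proteasome 2 each in place of 1.

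Homeobox and other transcription factor genes were at shares near the background, and nuclear hormone receptors were under it. Among homeobox genes, the class to which ceh-14 belongs, 2 of 72 (2.78%, 0.765 to 9.57%) had a member peak: unc-62, a Meis-type gene (146.4, downstream at 815 bases), and ceh-58 (99.9, at -221 bases). Other transcription factors had 6 of 166 (3.61%), led by daf-19, the RFX factor of ciliated sensory neurons (175.6, at -191 bases), unc-37, a Groucho corepressor (101.8), and hlh-30, the TFEB homologue (97.2). The 6 include lin-28 (88.4), an RNA-binding protein that was also counted in the list of RNA binding and small RNA pathway genes. Nuclear hormone receptors had 1 of 247 (0.405%, 0.0715 to 2.26%), nhr-49 (102.7). Without replicate 2 the homeobox list held 1 gene and the nuclear hormone receptors 3. No member lay at any of 632 C-type lectin, F-box A and MATH genes, 174 genes of the P450, UGT and glutathione transferase families, 147 cuticle collagens, 77 histone genes or 19 genes of the insulin and TOR pathways. For the last 2 these counts of 0 allow shares of up to 3.90% and 15.8%, and histone genes left the rule a median of only 116 bases each. The cuticle collagens held 5 genes without replicate 2 and 1 without replicate 1.

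**Figure D4:**
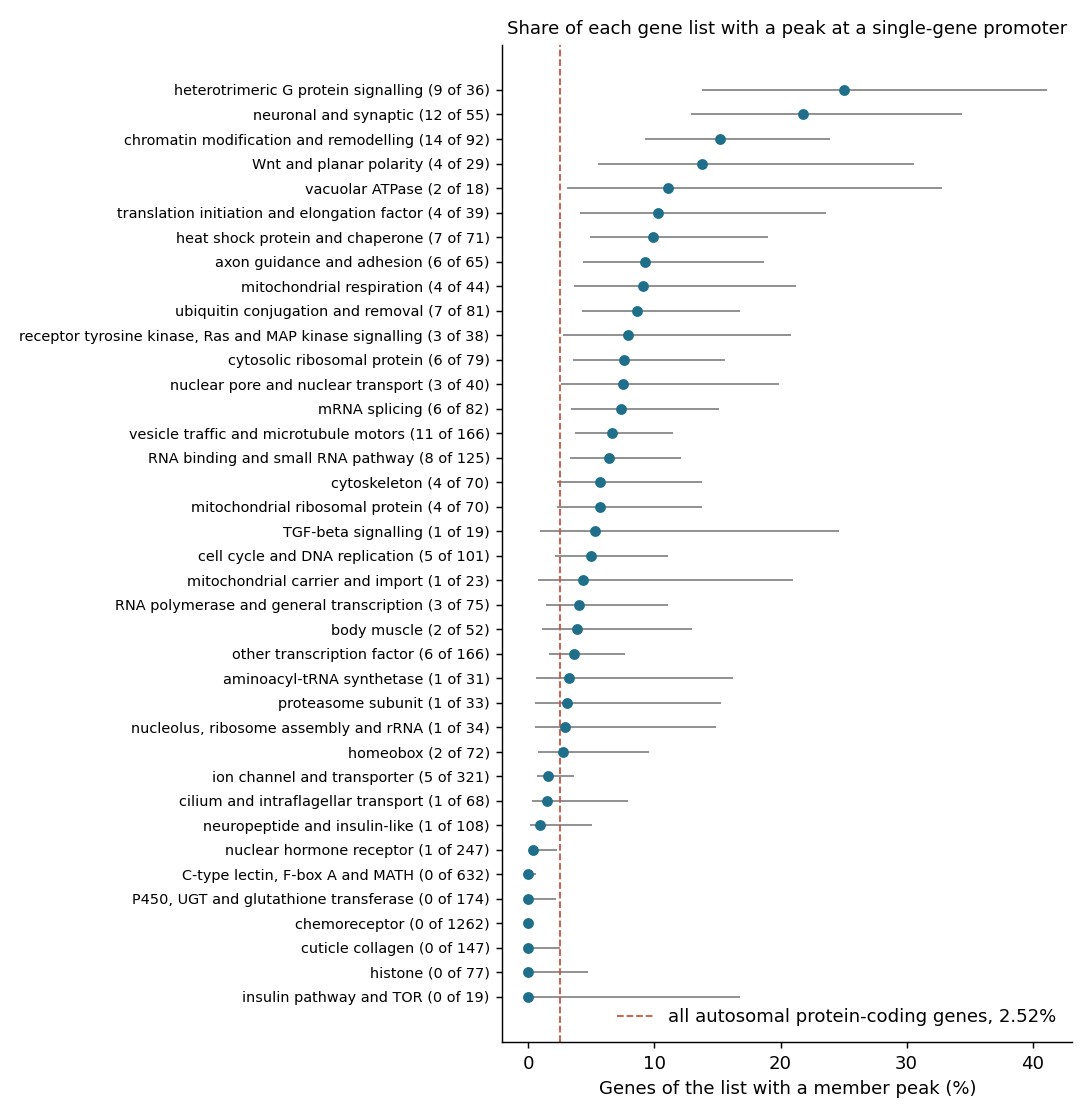
Share of the autosomal genes of each of 38 lists that had a member peak, in percent; points are shares, lines are 95% Wilson intervals, and counts stand beside each name. The dashed line is the share of all autosomal protein-coding genes, 2.52%; G protein signalling is highest at 25%, and 6 lists stand at 0.

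The sequence at the summits was rich in G and C. Windows of 50 bases to either side of member summits had 47.6% ± 8.79 GC (SD over 476 peaks). The flanks centred 300 bases to either side had 36.8%, and windows 232 bases upstream of 11443 single-gene promoters without an IDR peak had 33.7%. In bins of 20 bases the mean was highest just before the summit, with 47.8% in the bin before that and 48.5% in the bin after, and was under 40% in every bin past 80 bases on either side. Autosomal peaks with starts of several genes had 45.6% ± 8.47.

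Several hexamers, searched on both strands in the same windows, followed the same pattern. GAGAGA (reverse complement TCTCTC) was in 130 member windows (27.3%, 23.5 to 31.5%), in 7.46% of 952 flank windows and in 6.28% of promoters without a peak. It was in 15.2% of windows at peaks with starts of several genes and in 38.3% at peaks with no start. GAGACG, which begins with GAGA as GAGAGA does, was in 19.3% of member windows, 3.68% of flanks and 3.06% of promoters without a peak. CTGCGT was in 14.5% (11.6 to 17.9%) of member windows, 2.52% of flanks and 2.34% of promoters without a peak, and was equally frequent upstream (14.6%) and downstream (13.9%). GCGCGC was in 9.87%, 2.00% and 0.961% of the same windows. TAATTA, a core of homeodomain sites, was in 5.88% (4.10 to 8.37%) of member windows, 5.15% of flanks and 6.46% of promoters without a peak. TTTCAG, the consensus at the end of C. elegans introns, was in 7.77%, 21.4% and 17.4%. These words were chosen with results of these data known, and base composition differs between the sets of windows.

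GAGAGA and its reverse complement were not equally frequent. On the strand of the gene, 70 upstream members held TCTCTC alone, 34 held GAGAGA alone and 5 held both. Promoters without a peak had a like ratio, with 487 and 219 windows. CTGCGT alone was on the strand of the gene in 30 upstream members and its reverse complement alone in 28, while promoters without a peak had 156 and 103 windows. GAGAGA was less frequent in the 119 strongest members, at 18.5%, than in the following groups of 119, at 31.1%, 31.9% and 27.7%.

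**Figure D5:**
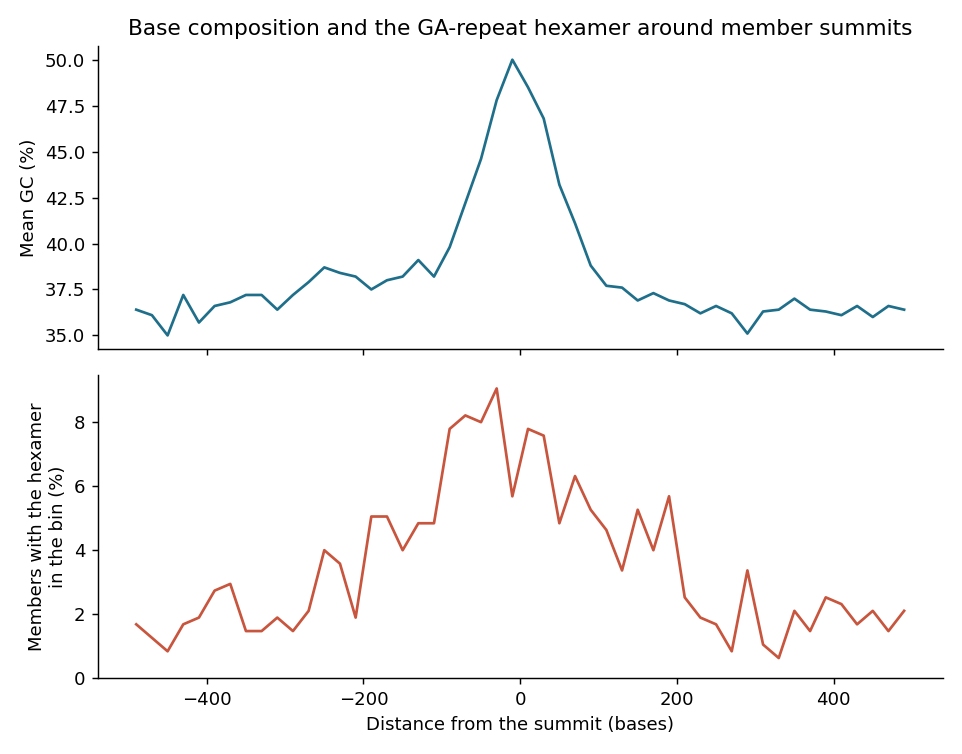
Mean GC content (upper panel, percent) and share of the 476 members with the GA-repeat hexamer or its reverse complement (lower panel, percent) in bins of 20 bases by distance from the summit. GC is highest next to the summit, between bins of 47.8% and 48.5%, and the hexamer is most frequent, at 9.03%, 40 to 20 bases before it.

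Longer words were shared by members of different chromosomes. The commonest 12-base word, the one in capitals at M01F1.9, eel-1, rps-24 and Y62F5A.12, was in 15 member windows (3.15%, 1.92 to 5.13%) at 13 genes. Their median signal value was 174.5 against 103.6 for all members. The same word was in 10 of 871 other autosomal IDR windows (1.15%) and in 2 of 11443 promoters without a peak (0.0175%), and the nuclear genome held 373 copies on both strands. Besides the genes shown, it was at Y32B12B.4, ttll-4, C09E7.7, duo-3, Y50D4A.6, F23B12.4, Y61A9LA.12, W09B6.4 and lin-13. Another 12-base word, in 11 member windows, was found at 11 genes that all carried the commonest word. The word in capitals at npp-8 and pptr-2 was in 11 members (2.31%) at 11 genes, in 9 other autosomal windows (1.03%) and in 3 promoters without a peak (0.0262%), with 206 copies in the genome. An alternating run of 12 bases of A and G was in 13 members (2.73%), among them rgs-1, cmk-1 and gsa-1, in 17 other autosomal windows and in 22 promoters without a peak, and had 7215 copies.

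Repeated sequence moved with signal strength. A window was counted as repeated when any of its 24-base words occurred at least 10 times in the nuclear genome. This was so for 33 members (6.93%, 4.98 to 9.58%) and for 5.99% of promoters without a peak. It was so for 4 of the 12 strongest members, for 16 of the 119 strongest (13.4%, 8.45 to 20.7%) and for 17 of the other 357 (4.76%, 2.99 to 7.49%). The median signal value was 130.4 with such a word and 102.2 without. No source used here says how reads in repeated sequence were placed, and its part in the signal values was not tested. Without those 33 members, 85.1% of 443 summits were upstream, at a median of -228.0 bases.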

How the data were processed

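Peaks were mapped by chromatin immunoprecipitation and sequencing in 2 biological replicates of 1 group, CEH-14-GFP late embryos. The authors deposited narrowPeak lists: IDR peaks, a pooled relaxed list of 21766 entries, and relaxed lists of 21217 (replicate 1) and 19577 (replicate 2) entries. The signal value is the authors' own score of each deposited entry, with a scale that differs between lists, and served to rank and describe entries within one list. Per the records deposited beside the lists, the relaxed lists derive from alignments and 1 further file, and the IDR peaks from the relaxed lists. No source used here gives the aligner, the peak caller, a version or the IDR threshold. The lists hold no read numbers, so depth is unknown. Wilson intervals at 95% cover counting error only.

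Gene models were Ensembl release 115 (WBcel235, the same sequence as ce11), and product names and sequence came from RefSeq; all 434 genes had a product name. Coordinates are 1-based. Distances run from a summit to the nearest annotated start of its gene. Replicate entries matched at 50% reciprocal overlap. Hexamers were counted within 50 bases of summits, in 2 flanks 300 bases away, and 232 bases upstream of the outermost start of genes without an IDR peak. Common 12-base words were taken in order of the number of members, passing over words that share 6 bases with one already taken.

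The members, gene lists and hexamers were chosen with earlier results of these data known, and some lists were corrected by the known role of genes after a first count. Common words and copies of 24-base words were added after the data were seen. Of the lists' symbols, 6 were not in the annotation. With 1 group no comparison between groups was possible, and no test was made. The plan was to name the 12 strongest members and up to 4 of the strongest genes of each list (all where at most 6 had a member peak). It also covered genes with the most members, the 3 farthest each way, the 3 with the largest rank difference each way and those nearest the limits. For several lists fewer genes were named or none, and some lists are shown in the figure only. Others were named after their values were seen. The rule, intervals and word search were tested on simulated data. Python 3.11.15, numpy 2.4.6, pandas 2.3.3, scipy 1.17.1 and matplotlib 3.10.9 were used.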

Additional observations from a re-analysis of the deposited data

How the results depend on the processing

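The main description held under most settings. The settings were a window of 500 or 2000 bases, 1 start per gene and other limits for small RNA genes. Further settings were the stronger part of the IDR list and each replicate's list alone. A replicate's list was cut to its 1681 strongest entries, the size of the IDR list, which partly sets its number of members. The median distance, the only result that could change sign, stayed upstream. The stronger part of the IDR list left 242 members at 228 genes by construction. Under the other settings the number of member peaks stayed between 412 and 525. The window sets part of the position: the share upstream was 88.7% at 500 bases and 81.2% at 2000 bases, the median distance -188.0 and -303.0 bases, and the share with GAGAGA 35.9% at 2000 bases. With either replicate's list alone the mean GC content was 46.4% to 47.3%. Shorter or longer windows at the summit moved the shares by construction: at 25 bases to either side GC was 49.3%, GAGAGA 13.0%, CTGCGT 5.67% and TAATTA 2.94%, and at 100 bases 44.3%, 42.6%, 22.1% and 11.8%. At an overlap of 1 base 100% of members were met in each replicate, which follows largely from how IDR peaks are chosen. Gene counts in lists are small and moved more: by over 1.5 times for 20 of 38 lists at 2000 bases, 12 at 500 bases, 17 in the stronger part of the IDR list, 3 without replicate 1 and 10 without replicate 2. G protein signalling held 4 to 10 genes over these settings and the neuronal list 3 to 13. Depth is unknown and no control library was analysed. No paired analysis was possible because the series has 1 group.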
